A study of Rattus norvegicus with 4 samples.

Results

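The enzymes and binding proteins of DNA methylation were followed in RNA-seq libraries of the newborn rat hippocampus. 9 genes were looked up by symbol, and 6 of them had a row: the writers Dnmt1, Dnmt3a and Dnmt3b and the readers Mbd1, Mbd2 and Uhrf1, 6 of 17445 rows in the 4 files together. The erasers Tet1, Tet2 and Tet3 had no row under their symbols. Tet2 was matched through the protein name of 1 new gene model and Tet3 through 3 models. No row or model was matched to Tet1, so its level is not analysed here. These 4 models are described beside the 6 genes and are not counted with them.

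The tissue came from Wistar pups on postnatal day 1. Their dams, 10 weeks old, had received bisphenol A (BPA) or the vehicle alone from gestation day 1 until birth. The dose of BPA was 5000 µg/kg body weight each day. BPA, a compound found in polycarbonate plastics and epoxy resins, has weak estrogenic activity. The 4 groups were control and BPA pups of either sex, each measured as 1 library made from 3 pooled hippocampi, so no group has a replicate and the variation between pups is not visible. The rats carried no transgene or other allele named in the labels, and the study asked how BPA affects the hippocampus of each sex.

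In mammals DNA is methylated mainly on the cytosine of CpG dinucleotides. Dnmt3a and Dnmt3b place new methyl groups, and Dnmt1 copies the existing pattern onto the new strand after replication, guided by Uhrf1, which recognizes CpG sites methylated on a single strand. The Tet dioxygenases oxidize methylcytosine as the first step of its removal, and the Mbd proteins bind methylated CpG sites and recruit repressive complexes. In the postnatal brain Dnmt3a is known for methylation of neuronal genomes, whereas Dnmt1 and Uhrf1 are most abundant in dividing cells.

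Values are FPKM, fragment numbers corrected for gene length and library depth, which allows levels to be compared between genes. Low values were whole multiples of 1 fragment's worth, which gave an estimated depth of 8640000 to 8915000 fragments per library. The labelled tissue was checked with marker lists. The 12 markers of hippocampal neurons all had a row and summed to 699 to 736 FPKM per library, and the 6 of 7 hypothalamic or thalamic genes with a row in either sex summed to 6.47 to 8.84 FPKM. Other lists differed between the libraries more than the methylation genes did: the sum of 6 choroid plexus markers ranged from 8.73 FPKM in female control to 705 FPKM in male BPA, and that of 5 meningeal markers from 35.3 FPKM in male BPA to 101 FPKM in female control. The lowest listed value is 0.01 FPKM, so a marker with a row could not be at 0. The choroid plexus markers came down to 0.03 FPKM (Kl in female BPA). The meningeal markers came down to 2.18 FPKM (Lum in male BPA). The part of the differences between these sums in the results below was not tested. In bulk tissue fewer cells of a type and less RNA per cell cannot be told apart.

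Dnmt1 was the most abundant of these genes in every library, and Dnmt3b the least abundant. The mean over the 4 libraries was 24.1 ± 1.97 FPKM (SD, n = 4 libraries) for Dnmt1, followed by Mbd1 at 18.4 ± 1.54 FPKM, Mbd2 at 16.3 ± 1.21 FPKM and Dnmt3a at 15.8 ± 1.44 FPKM. The summed Tet3 models stood at 10.2 ± 0.723 FPKM. Uhrf1 followed at 4.34 ± 1.22 FPKM, the Tet2 model at 4.17 ± 0.459 FPKM and Dnmt3b at 0.860 ± 0.183 FPKM. The ranges of Mbd1 and Mbd2, of Mbd2 and Dnmt3a, and of Uhrf1 and Tet2 overlapped, so the order within these pairs is not beyond the spread of the libraries. All other neighbours in this order had ranges that did not overlap. Among all rows with a gene ID, 73.9% had a mean below that of Dnmt1 and 16.4% a mean below that of Dnmt3b. The newborn hippocampus thus held 15.4 to 24.6 times as much Dnmt3a as Dnmt3b transcript per kilobase.

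**Figure D1:**
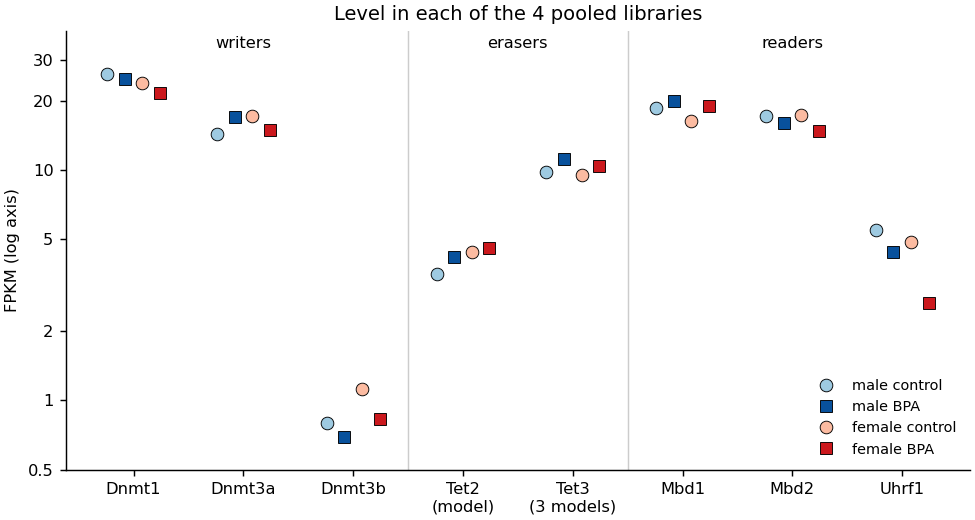
FPKM (log axis) of each methylation gene in the 4 pooled libraries, with circles for control, squares for BPA, blue for male and red for female pups. Each point is 1 library, Tet2 is 1 gene model and Tet3 the sum of 3. Dnmt1 lies highest in every library, and Uhrf1 is lowest in female BPA at 2.64 FPKM.

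Uhrf1 showed the largest difference between BPA and control among the 6 genes. Controls were at 5.47 FPKM (males) and 4.88 (females), and BPA libraries at 4.39 (males) and 2.64 (females), so both BPA libraries lay below both control libraries and female BPA lay apart from the other 3. This order was seen in 19.9% of the 13542 rows tested. On the scale of log2(FPKM + 1) the difference of BPA minus control was -0.26 in males and -0.69 in females. The latter was the only difference of at least 0.5 in absolute size among the 6 genes in either sex, a size reached by 6.15% of the 10876 rows with a gene ID in females and by 3.46% in males. None of the 6 reached a difference of 1, as 0.286% of the rows with a gene ID did in males and 0.671% in females (1.7% and 2.32% of all rows). Taken over both sexes the difference was -0.48 with a standard error of 0.23, and limma, which compared 2 BPA with 2 control libraries, gave an unadjusted p of 0.0763 and a Benjamini-Hochberg adjusted p of 0.973. Without the female BPA library the difference was -0.20, and without male BPA it was -0.76.

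The estimated fragments behind these values were 168 for control and 134 for BPA in males, and 146 and 80 in females. The ratio of BPA to control was 0.541 in females, with a 95% counting interval (exact, conditional on the sum of the fragments) of 0.406 to 0.714, and 0.803 in males, with an interval of 0.631 to 1.01. Such intervals cover counting error only, and fragments are not independent molecules. They excluded 1 for 35% of the rows with a gene ID between the female libraries and for 25.1% between the male libraries, so a difference beyond counting error between 2 of these libraries was common.

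Dnmt1, which works with Uhrf1 on newly replicated DNA, was at 26.2 FPKM without and 24.9 with BPA in males, and at 23.9 and 21.6 FPKM in females. The control and BPA ranges overlapped, and the sexes did not. The difference of log2(FPKM + 1) was -0.07 in males and -0.14 in females, and -0.11 over both (standard error 0.12, limma adjusted p 0.973). The combined value was -0.008 without the female BPA library and -0.208 without male BPA. In fragments the female ratio was 0.900 (95% counting interval 0.830 to 0.979) and the male ratio 0.9504 (0.880 to 1.03). Dnmt1 transcript was 4.79 times as abundant as Uhrf1 transcript per kilobase in male control and 4.90 times in female control, against 5.67 times in male BPA and 8.16 times in female BPA.

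Because Uhrf1 and Dnmt1 are the genes of this group tied to DNA replication and both were lower in BPA in each sex, as 31.6% of the rows tested were, their promoter windows are shown, taken from RefSeq on the rat assembly GRCr8 and reaching from 250 bases before to 50 bases after an annotated start. Capitals mark matches to the letters of the E2F consensus (TTTCCCGC, TTTCGCGC, TTTGCCGC or TTTGGCGC on either strand, overlaps allowed), a motif named after the E2F factors that act at the start of DNA synthesis. Uhrf1 has 3 annotated windows, and the one that holds matches is printed.
Uhrf1 chr9:1222936-1223235, plus strand: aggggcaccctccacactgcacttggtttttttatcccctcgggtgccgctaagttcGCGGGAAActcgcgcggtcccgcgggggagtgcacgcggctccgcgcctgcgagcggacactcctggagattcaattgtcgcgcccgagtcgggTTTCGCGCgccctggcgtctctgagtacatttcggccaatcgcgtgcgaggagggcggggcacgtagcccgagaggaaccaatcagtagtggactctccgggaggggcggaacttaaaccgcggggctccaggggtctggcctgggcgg
Dnmt1 chr8:27762792-27763091, minus strand: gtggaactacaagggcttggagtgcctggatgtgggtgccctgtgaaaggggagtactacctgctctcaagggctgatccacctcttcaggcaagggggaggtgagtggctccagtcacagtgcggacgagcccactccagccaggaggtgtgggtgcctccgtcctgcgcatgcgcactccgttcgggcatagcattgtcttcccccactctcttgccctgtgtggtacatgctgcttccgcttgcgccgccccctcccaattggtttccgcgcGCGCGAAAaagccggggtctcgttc

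The Uhrf1 window held 2 matches and the Dnmt1 window 1, whereas 2.14% of all 33469 windows held at least 1. Of the 8 genes of this group with a window in the table, these 2 were the only ones with a match. CpG dinucleotides, the substrate of the writers, numbered 35 in the Uhrf1 window and 17 in the Dnmt1 window, against a median of 7 over all windows. The Uhrf1 windows without a match held 8 and 13, and the windows of Mbd2 and Tet2 held 39 each, Mbd1 25 and Dnmt3a 21. The Tet1 windows held 3, 16 and 4, and the Tet3 windows 15, 23, 3 and 3, so some lay below the median. A match is a description of the letters, and no binding or methylation was measured in these data.

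The 17 markers of cycling cells were, like Uhrf1, mostly lower with BPA. Their sum was 231 FPKM in control and 214 in BPA males, and 240 and 214 FPKM in the respective females. Of these 17 genes, 10 had both BPA libraries below both controls and 1 had both above (19.9% and 13.8% over all rows tested), and the median difference of BPA minus control was -0.16, against -0.02 over all rows tested. None had a limma adjusted p under 0.05, and 1, the replication licensing gene Mcm3, was lower at an unadjusted p under 0.05 (limma p 0.0249). Expressed as a share of the summed cycling markers, Uhrf1 was 2.37% (male) and 2.04% (female) in controls and 2.06% and 1.23% with BPA, while Dnmt1 was between 9.98% and 11.7% in all 4. The same order, both BPA libraries below both controls, held for 6 of 11 radial glia and astrocyte markers and 4 of 6 vessel markers, against 19.9% of all rows tested. It held for 3 of 12 hippocampal neuron, 2 of 9 interneuron, 1 of 7 oligodendrocyte, 2 of 7 microglia and 2 of 5 meningeal markers, for 1 of 3 red blood cell and 1 of 2 thalamic or hypothalamic markers tested and for none of 4 choroid plexus markers tested. The meningeal markers summed to 101 FPKM in female control and 41.8 FPKM in female BPA. The part of these cell types in the Uhrf1 difference was not tested.

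**Figure D2:**
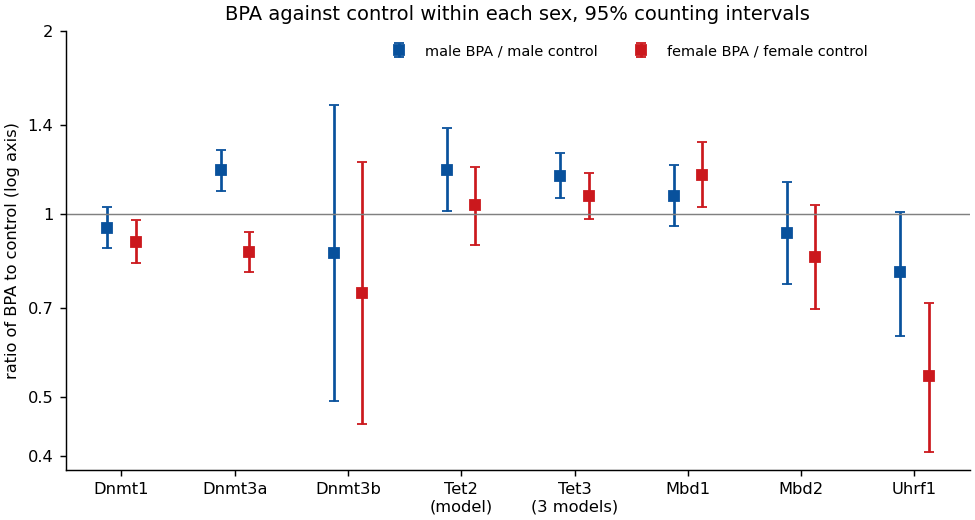
Ratio of BPA to control (log axis) for each methylation gene in males (blue) and females (red), with bars for the 95% counting interval from the estimated fragments. The interval excluded 1 for Dnmt3a in both sexes but on opposite sides, and the lowest ratio was that of Uhrf1 in females at 0.541.

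Dnmt3a, the main de novo methyltransferase of neurons, differed with opposite signs in the sexes, as did 43.2% of the rows tested. It was at 14.4 FPKM in male control and 16.9 in male BPA, and at 17.2 in female control and 14.9 in female BPA. The 2 controls thus lay at the outer ends of the range, and the BPA libraries between them. The difference of log2(FPKM + 1) was 0.23 in males and -0.20 in females, and 0.02 over both (standard error 0.14, limma adjusted p 0.996). With 1220 to 1442 estimated fragments, the ratio of 1.18 in males (95% counting interval 1.09 to 1.28) and that of 0.866 in females (0.802 to 0.935) both excluded 1, but so did the ratio of 1.198 of female to male control (1.11 to 1.29). Between these 2 controls the interval excluded 1 for 34.2% of the rows with a gene ID. The effect of BPA could not be compared between the sexes with a test, since 4 single libraries leave no residual degrees of freedom.

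Dnmt3b, the second de novo enzyme, known from early embryonic tissue, was at 0.80 FPKM in control and 0.69 in BPA males, and at 1.12 and 0.83 FPKM in the females. Its mean was below 1 FPKM, so it was not among the rows tested. These values rest on 26 to 41 estimated fragments, and the counting intervals of the ratios, 0.492 to 1.51 in males and 0.451 to 1.22 in females, leave a difference of this size not detectable at this depth.

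The readers Mbd1 and Mbd2 differed from control in opposite directions. Mbd1, whose protein binds methylated CpG sites through its MBD domain, was at 18.6 (males) and 16.3 FPKM (females) in controls and at 19.96 and 18.9 FPKM with BPA. Both BPA libraries lay above both controls, an order seen in 13.8% of the rows tested. Mbd2, the subunit that brings the NuRD deacetylase complex to methylated DNA, was at 17.2 and 17.3 FPKM in male and female control and at 16.0 and 14.7 FPKM in male and female BPA, with both BPA libraries below. Uhrf1, Mbd1 and Mbd2 were thus the 3 of 5 tested genes whose BPA and control libraries did not overlap, where 33.6% of all rows tested had no overlap in either direction. The differences over both sexes were 0.15 for Mbd1 (standard error 0.12) and -0.16 for Mbd2 (standard error 0.12), each with a limma adjusted p of 0.973. For Mbd2 the counting intervals of both ratios included 1, and for Mbd1 that of the females, 1.03 to 1.32, did not.

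Of the 5 genes of this group tested, 0 passed a limma adjusted p under 0.05 and 0 an unadjusted p under 0.05. Over all 13542 rows the numbers were 0 (0%) and 637 (4.7%). For 2 libraries against 2, the smallest two-sided p of an exact permutation test is 0.333. Counting all 6 genes, 4 were lower in BPA in males and 5 in females, with a median difference of -0.08 in males and -0.20 in females, beside -0.004 and -0.04 over all rows with a gene ID. Intervals that excluded 1 were found for 1 of the 6 genes in males and for 4 in females, beside 25.1% and 35% of the rows with a gene ID.

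The erasers were represented by new gene models. The Tet2 model, BGI_novel_G001901, was at 3.53 and 4.18 FPKM in males without and with BPA and at 4.42 and 4.57 FPKM in females, and the difference of BPA minus control was 0.12 (standard error 0.18, limma adjusted p 0.984). The ranges of control and BPA overlapped. The Tet3 models carry the name of 1 protein and may share reads, so their separate values are uncertain.

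Summed, the Tet3 models were at 9.77 FPKM (males) and 9.55 (females) in controls and at 11.1 and 10.45 FPKM with BPA. Both BPA sums lay above both control sums, by 14.1% in males and 9.42% in females (difference of log2 values 0.15, standard error 0.13, limma adjusted p 0.969 in the table of sums per gene). This order was seen in 13.8% of the rows tested. In fragments the male ratio was 1.16 (95% counting interval 1.06 to 1.26). The female ratio was 1.07, with an interval that included 1 (0.981 to 1.17). The single models were less even than their sum. BGI_novel_G002359 took 55.3% of the sum in male control, 49.6% in male BPA and 49.9% in female control, but 78.4% in female BPA. BGI_novel_G002361 took 24.7% of the sum in male BPA and 5.65% to 13.0% in the other libraries. Within females BGI_novel_G002359 was higher in BPA by 0.67 on the log2(FPKM + 1) scale and BGI_novel_G002360 lower, with -0.77. In males BGI_novel_G002361 differed by 0.77, and in females by -0.49. None of these models had a limma adjusted p under 0.05 over both sexes.

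**Figure D3:**
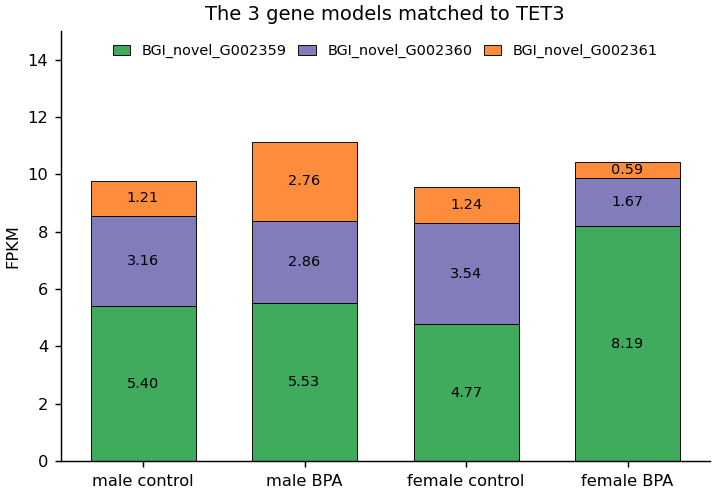
FPKM of the 3 gene models matched to TET3, stacked for each pooled library, with each model's value inside its bar. The sums differ by less than the models do: they run from 9.55 to 11.1 FPKM, while BGI_novel_G002359 reaches 8.19 FPKM in female BPA and 4.77 to 5.53 FPKM in the others.

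Females and males were also compared across both treatments, with the same 4 libraries, so these values are not independent of those for BPA. Dnmt1 was lower in both female libraries than in both male libraries, an order of 22.5% of the rows tested, with a difference of female minus male of -0.16 (standard error 0.10, limma adjusted p 0.596). Dnmt3b and the Tet2 model were higher in both female libraries, an order seen in 19.8% of the rows tested, and the Tet2 difference was 0.18 (standard error 0.18, limma adjusted p 0.764). For Uhrf1 the difference was -0.35 (standard error 0.26, limma adjusted p 0.673), and without the female BPA library it was -0.006. Dnmt3a, Mbd1 and Mbd2 had limma adjusted p values of 0.946, 0.743 and 0.911. None of the 5 tested genes passed an unadjusted p under 0.05, where 10.6% of all rows did. An adjusted p under 0.05 was reached by 1 of all rows (0.00738%), which is not in this group.

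The partners of these proteins were examined in 5 lists with 71 genes, of which 55 were tested. None passed a limma adjusted p under 0.05 and none an unadjusted p under 0.05 for BPA against control. Both BPA libraries lay below both controls for 4 of the 55 genes, where 19.9% of all rows did, and above them for 8, where 13.8% did, and the median difference was 0.01. Within males 2 of the 55 differed by at least 0.5 (3.46% of all rows with a gene ID) and within females 3 (6.15%), so these shares lay near the background.

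Among the partners of the writers, 8 of 10 genes were tested. Uhrf2, a relative of Uhrf1 with the largest difference of the list over both sexes (0.13, limma adjusted p 0.9747), was at 15.3 FPKM without and 21.3 with BPA in males, and at 19.4 and 16.8 FPKM in females, higher in BPA in males and lower in females, as Dnmt3a was. Hells, a chromatin remodeler needed for methylation of repeats, was at 1.34 and 1.96 FPKM in males and 2.53 and 1.43 FPKM in females, again with opposite directions. Dnmt3l, the cofactor of the de novo enzymes in germ cells, was listed in the female libraries, at 0.14 FPKM in control and at the lowest listed value of 0.01 in BPA.

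In the list of demethylation partners and base excision repair, 16 of 19 genes were tested. Tdg, the glycosylase that removes oxidized methylcytosine, was at 49.8 (males) and 48.8 FPKM (females) in controls and at 51.0 and 60.5 FPKM with BPA, with a difference of 0.17 (limma adjusted p 0.973). The largest difference over both sexes was that of Gadd45b, a stress-induced gene linked to DNA demethylation in neurons, at 1.28 and 0.73 FPKM in males without and with BPA and at 1.49 and 0.83 FPKM in females. It was -0.42, at a mean near the 1 FPKM limit, with a limma adjusted p of 0.973. Within each sex the related Gadd45a, named after its values were seen, differed more, by -0.95 in males and 0.53 in females.

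Of the other CpG readers 9 of 13 were tested, and the median difference was -0.02. Mbd3, a NuRD subunit related to Mbd2, was higher than any of the 6 genes, at 67.8 and 61.3 FPKM in males and 52.5 and 56.8 FPKM in females. The largest difference over both sexes in the list was -0.21 for Zbtb4, a zinc finger reader (limma adjusted p 0.973).

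In the NuRD and corepressor list 11 of 15 genes were tested, and the largest difference over both sexes was -0.22 for the deacetylase Hdac1, which was at 20.5 FPKM in female control and between 15.03 and 15.7 FPKM in the other libraries. Of the genes that make and recycle the methyl donor S-adenosylmethionine, 11 of 15 were tested. The largest difference over both sexes was 0.30 for Cbs, which draws homocysteine out of the cycle and was at 13.6 FPKM in female BPA against 9.22 to 10.2 FPKM elsewhere. Both genes had a limma adjusted p of 0.973.

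**Figure D4:**
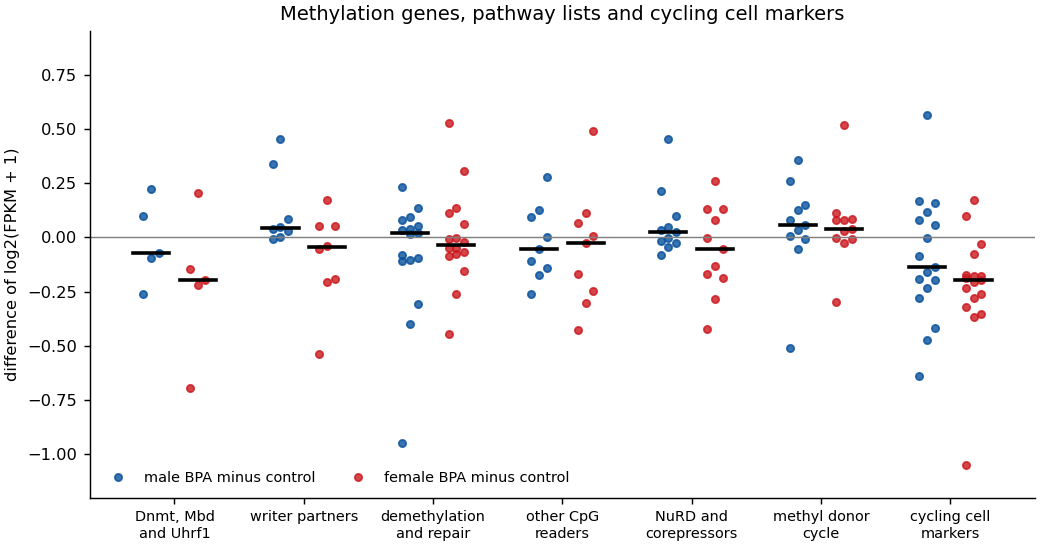
Difference of log2(FPKM + 1) between BPA and control in males (blue) and females (red) for the 5 tested genes of the Dnmt, Mbd and Uhrf1 group, the 5 pathway lists and the 17 cycling cell markers. Each dot is 1 gene with a mean of at least 1 FPKM and bars are medians, which lie at -0.14 in males and -0.20 in females for the cycling markers.

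The rows whose values followed those of a writer, an eraser and a reader most closely were found by the root mean square difference of centred log2(FPKM + 1) over the 4 libraries. For Uhrf1 they were Pycr1, an enzyme of proline synthesis (0.0166), Syn2, a synaptic vesicle protein (0.0230), and Wdr34, a dynein chain of cilia (0.0268), and 6 of 10856 rows lay within 0.05. For Dnmt1 they were Nr1h2, Stk11ip and Adap2, with 468 rows within 0.05, and for the summed Tet3 models Polr2h, Chmp1a and Gng3, with 367 rows. With 4 libraries such closeness is a description, and many rows share the flatter patterns.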

How the data were processed

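Total RNA of pooled hippocampi was sequenced, and the authors deposited 1 FPKM value per gene and library. The unit was read from the values, since the products of FPKM and length in kb total 1023371 to 1035551 in each library. The submitters' processing notes name HISAT 0.1.6, Bowtie2 2.2.5, RSEM and the build rn6. The 9 genes and all lists were chosen with earlier results of these data known.

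Rows of all 4 files (16375) with a mean of at least 1 FPKM (13542) were compared on log2(FPKM + 1), a scale that shrinks differences of low genes, by limma 3.58.1 (R 4.3.3; trended eBayes, Benjamini-Hochberg adjustment, two-sided, no covariate). Within a sex no test was possible, and rows past a fold were counted as a description. Depth was estimated from the fragment steps of 733 to 784 short rows per library, 94.1% to 98.3% of which lay within 0.15 of a whole number, where evenly spread values would give 30%. Since RSEM assigns shared reads by estimate, the fragments of a long gene are approximate. The limma fit and the depth estimate were each run on simulated data with known answers first.

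All 6 genes were found under their gene IDs in RefSeq (GRCr8), which was used for names and promoter windows. The genes named are the 9, Mbd3, Tdg, Uhrf2, Hells and Dnmt3l, the gene with the largest combined difference in each list, and the 3 rows closest to Dnmt1, Uhrf1 and the summed Tet3 models. One further gene of this rule is not reported here. Mcm3 and Gadd45a were named after their values were seen. Alternatives were quantile normalization, median centring, no filter or a mean of 5, a pseudocount of 0.1, sums per gene, the other factor as a covariate, an unadjusted p, and leaving out each library. Tables were handled with pandas 2.3.3, intervals came from scipy 1.17.1 and plots from matplotlib 3.10.9.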

Additional observations from a re-analysis of the deposited data

Results flagged for a closer look

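Dnmt3a and the Tet3 model BGI_novel_G002361 had BPA differences of opposite direction in the sexes. For Dnmt3a the female difference minus the male difference was -0.42 on the log2(FPKM + 1) scale, and for BGI_novel_G002361 it was -1.26. Each sex is 1 library against 1, so the contrast between the sexes was not tested, and opposite directions were seen in 43.2% of all rows tested.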

How the results depend on the processing

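For BPA against control, 0 rows passed an adjusted p under 0.05 in limma, and the number was 2 with sex as a covariate, 637 at an unadjusted p, and 0 to 3 when 1 library was left out, with 3 without female control. For female against male it was 1, and 2 with median centring, 21 at a mean of at least 5 FPKM, 23 with sums per gene, 55 with treatment as a covariate, 1442 at an unadjusted p, and 1 to 2 when 1 library was left out. None of the 5 tested genes or the 4 Tet models passed under the settings that tested them. A mean of at least 5 FPKM left out Uhrf1, the Tet2 model and the Tet3 models BGI_novel_G002360 and BGI_novel_G002361, and sums per gene left out the single Tet models. For Uhrf1 the adjusted p for BPA ranged from 0.543 to 1. Rows past an absolute log2 difference of 1 numbered 230 in males and 314 in females. They numbered 26 and 62 at a mean of at least 5 FPKM, 483 and 590 with a pseudocount of 0.1, and 59 and 110 with sums per gene.

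The directions for Dnmt1, Mbd1, Mbd2 and Uhrf1 under BPA held in every setting run. For Mbd1, Mbd2 and Uhrf1 leaving out 1 library could not turn them, because BPA and control libraries did not overlap. The sizes moved. Dnmt1 ranged from -0.208 (without male BPA) to -0.008 (without female BPA). Mbd1 ranged from 0.061 (without female control) to 0.241, and Mbd2 from -0.214 to -0.102 (without female BPA). Some other directions turned when 1 library was left out. For BPA, Dnmt3a ranged from -0.108 (without male control) to 0.137, also turning without male BPA (-0.073), the Tet2 model from -0.013 (without male control) to 0.246, and BGI_novel_G002361 from -0.485 (without male BPA) to 0.757. For female against male, Dnmt3a ranged from -0.077 (without male control) to 0.148, also turning without female control (-0.063). Without female BPA, 3 more turned in that comparison: Mbd2 to 0.059 (lowest value -0.160), BGI_novel_G002359 to -0.164 (highest 0.507) and BGI_novel_G002360 to 0.180 (lowest -0.586). The cause was not tested. Dnmt3b entered the test without a filter, with a limma adjusted p of 0.923 for BPA. No new gene model matched the proteins of the 6 genes, so sums per gene left their levels as they were. No paired analysis by replicate number was possible because the labels give none. Blocking by sex or by treatment, as the covariate fits above do, leaves 1 residual degree of freedom. The median level of the 6 genes, 16.1 FPKM, was 15.7 to 16.5 FPKM with 1 library left out.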
